A study of Mus musculus with 3 samples.

Results

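Replication-dependent histone genes were followed here through 46 genes of the 20659 named on the array, read by 51 of its 39429 probes that are not controls. A probe was taken where its RefSeq accession maps to a clustered histone gene, that is, to a symbol starting H2ac, H2bc, H3c or H4c, to H1f1 to H1f5, or to a gene whose older name starts Hist1h, Hist2h, Hist3h or Hist4h and is not a testis H1 variant. The gene table holds 70 such genes, of which 24 had no probe. The probes fell into 5 classes, with 5 probes for H1, 15 for H2A, 11 for H2B, 7 for H3 and 13 for H4. The set was chosen because its H2A genes read lower on the LIFR KO array, so the values of LIFR KO against wildtype are given as a description of what was chosen.

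The study measured total RNA of mouse embryonic stem cells (mESCs) on single-colour Agilent arrays. There was 1 array of cells labelled LIFR KO, 1 of cells labelled gp130 KO and 1 of wildtype cells, all grown under conditions called standard. LIFR is the receptor chain that binds leukaemia inhibitory factor, and gp130, the product of Il6st, is its signalling partner. The labels give neither the deleted part of either gene nor the number of clones. With 1 array a genotype there is no replicate error, no test and no p-value, and a difference between arrays can come from genotype, culture or array.

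Nucleosomes wrap DNA around a core built from H2A, H2B, H3 and H4, and H1 binds the linker DNA between them. The clustered genes that supply these proteins are transcribed mainly in S phase, at nuclear bodies organised by NPAT, and their mRNAs usually end in a stem-loop bound by SLBP in place of a poly(A) tail. The labelling kit named in the labels starts from oligo-dT, which favours tailed RNA. The signals therefore depend on the amount of each mRNA and on the share of it that carries a tail or an internal run of A, and how far each contributes was not tested. Many clustered genes are close to identical in their coding sequence, so a probe can also read RNA of other copies of its class. The deposited files hold no probe sequences, and each value below belongs to a probe named for a gene.

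The promoters show what the classes share in sequence and were printed for 8 genes that span the classes and the range of ratios. Each line is the 200 bases before the annotated start, read 5′ to 3′ on the gene's strand, from RefSeq on GRCm38.p6. Capitals mark 4 motifs on either strand: CCAAT, which NF-Y binds, TATAAA, the core of the TATA box, ATTTGCAT, the octamer that Pou2f1 (OCT1) binds, and AAACACA, an element described in H1 promoters. H1f4 lies on the minus strand of chr13:23622559-23622758, H2ac20 on the minus strand of chr3:96220881-96221080 and H2ac22 on the minus strand of chr13:21787249-21787448. H2ac8 lies on the minus strand of chr13:23571221-23571420, H2bc14 on the plus strand of chr13:21721844-21722043 and H3c4 on the plus strand of chr13:23575563-23575762. H3c3 lies on the minus strand of chr13:23745522-23745721 and H4c4 on the plus strand of chr13:23581368-23581567.
H1f4: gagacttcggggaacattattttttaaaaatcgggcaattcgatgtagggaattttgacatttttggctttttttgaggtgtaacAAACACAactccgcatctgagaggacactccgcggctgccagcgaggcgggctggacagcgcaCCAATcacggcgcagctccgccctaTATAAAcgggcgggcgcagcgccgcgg
H2ac20: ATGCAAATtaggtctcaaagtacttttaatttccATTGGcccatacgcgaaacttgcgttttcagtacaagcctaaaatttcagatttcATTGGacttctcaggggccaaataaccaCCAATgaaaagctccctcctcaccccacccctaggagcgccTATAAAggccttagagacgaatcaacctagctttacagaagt
H2ac22: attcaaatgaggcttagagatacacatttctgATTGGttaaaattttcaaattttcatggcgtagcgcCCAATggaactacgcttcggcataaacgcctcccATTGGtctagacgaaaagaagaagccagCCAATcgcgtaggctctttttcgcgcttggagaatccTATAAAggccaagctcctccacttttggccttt
H2ac8: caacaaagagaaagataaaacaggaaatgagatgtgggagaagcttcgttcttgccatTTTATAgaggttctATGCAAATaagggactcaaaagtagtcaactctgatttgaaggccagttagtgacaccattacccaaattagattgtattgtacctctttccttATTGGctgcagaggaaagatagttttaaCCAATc
H2bc14: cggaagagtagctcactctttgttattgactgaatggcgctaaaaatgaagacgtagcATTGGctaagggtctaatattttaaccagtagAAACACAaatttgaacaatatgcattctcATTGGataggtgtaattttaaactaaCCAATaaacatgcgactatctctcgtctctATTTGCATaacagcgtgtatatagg
H3c4: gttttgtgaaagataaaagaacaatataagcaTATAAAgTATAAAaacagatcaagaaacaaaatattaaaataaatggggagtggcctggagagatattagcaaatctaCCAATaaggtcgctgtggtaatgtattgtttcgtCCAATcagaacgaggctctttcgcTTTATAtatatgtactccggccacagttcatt
H3c3: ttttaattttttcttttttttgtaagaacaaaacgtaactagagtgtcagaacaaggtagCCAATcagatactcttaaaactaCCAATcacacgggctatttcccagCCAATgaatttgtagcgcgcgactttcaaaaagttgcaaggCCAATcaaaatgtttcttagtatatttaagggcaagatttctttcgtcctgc
H4c4: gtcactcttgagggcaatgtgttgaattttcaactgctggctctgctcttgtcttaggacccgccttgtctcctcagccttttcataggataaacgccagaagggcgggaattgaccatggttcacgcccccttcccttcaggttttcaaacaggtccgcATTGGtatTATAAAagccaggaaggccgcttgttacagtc

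In the 250 bases before the start, CCAAT was present in 5 of 5 H1, 18 of 18 H2A, 16 of 16 H2B, 8 of 10 H3 and 3 of 12 H4 genes that have a promoter in the table. The share among all 27025 promoters was 37.5%. ATTTGCAT was found in 7 of 18 H2A and 7 of 16 H2B genes and in 0 of the H1, H3 and H4 genes, against 1.81% of all promoters. AAACACA was found in 4 of 5 H1 genes, 2 of 18 H2A genes and 2 of 16 H2B genes, against 7.2% of all promoters. TATAAA was found in 4 of 5 H1, 7 of 18 H2A, 8 of 16 H2B, 4 of 10 H3 and 6 of 12 H4 genes, against 14.3% of all. Some H2A and H2B genes stand back to back, so a match between their starts can be counted for both genes. The H2A and H2B counts are therefore not separate. A match is a description of these letters and shows no binding. H2ac22 and H2ac20, whose probes read lower in LIFR KO, carry several CCAAT matches, and so does H3c3, whose probe did not read lower.

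**Figure D1:**
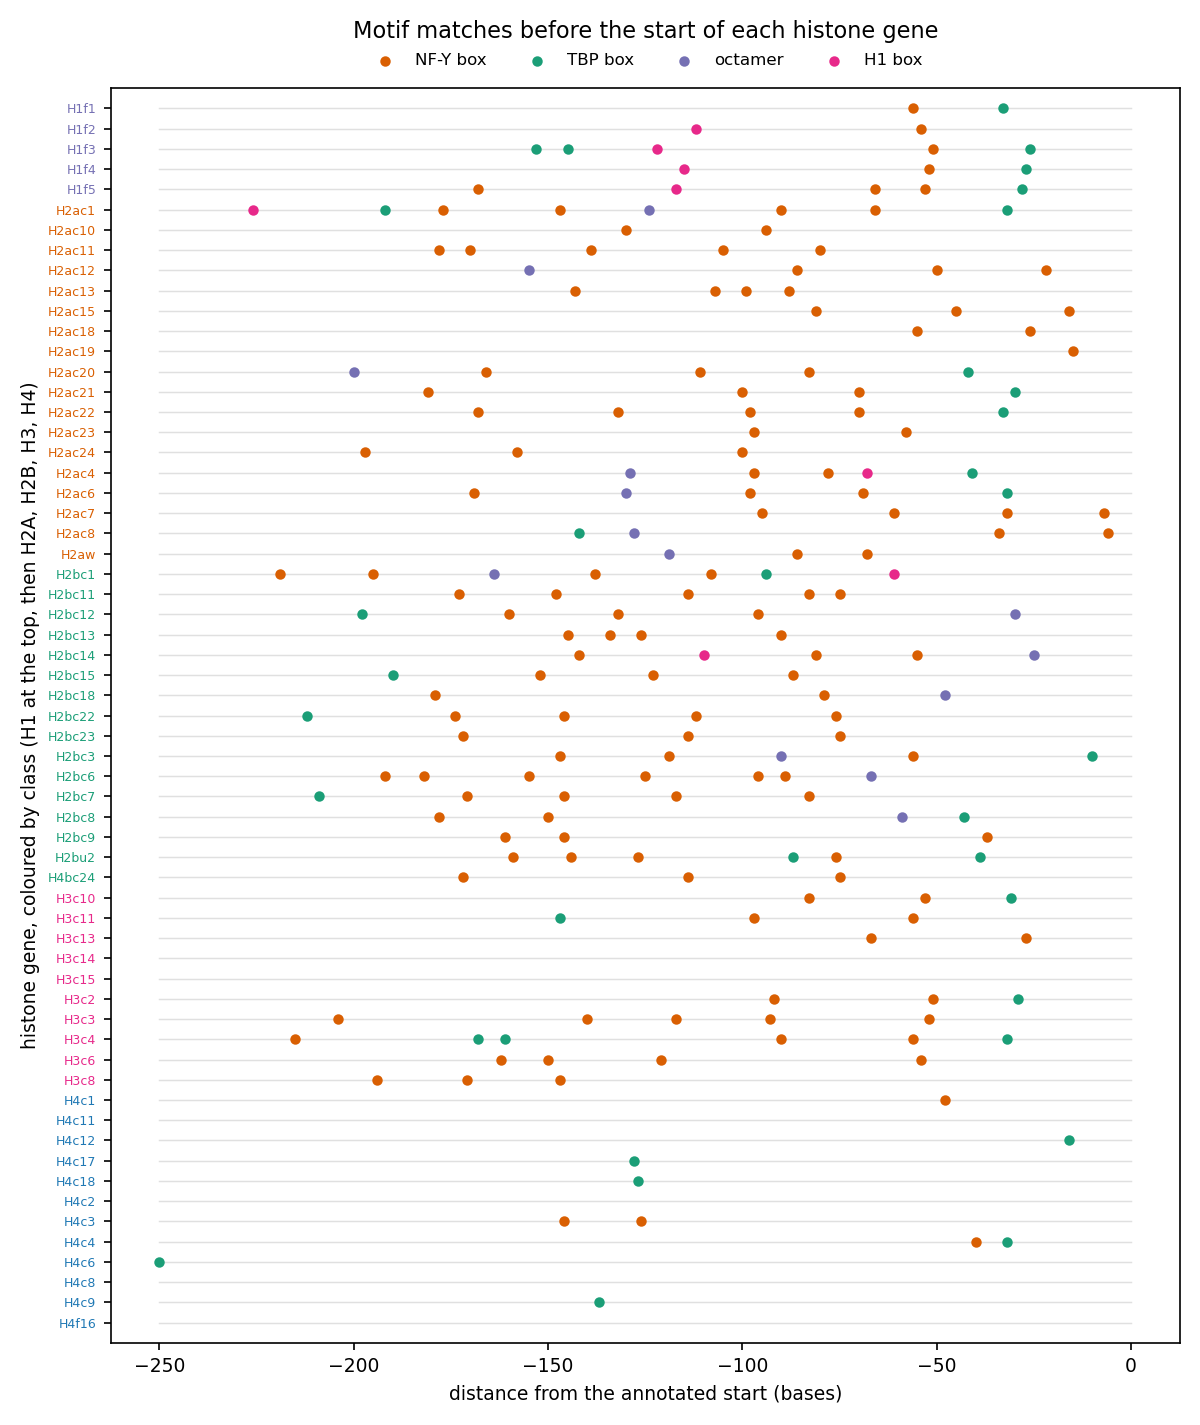
Motif matches in the 250 bases before the annotated start of 61 clustered histone genes, with distance from the start in bases on the horizontal axis and 1 gene a row, coloured by class. The points for CCAAT (NF-Y box) appear in every H1, H2A and H2B row, and in 3 of 12 H4 rows; the octamer points lie only in H2A and H2B rows.

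Of the 51 histone probes, 42 were well above background on all 3 arrays, or 82.4%, against 57.2% of all probes. A further 4, for H2bc3, H2bc22, H2bc23 and H3c1, were well above background on some arrays, and 5 were on none: those for H1f3, H2ac21, H2ac6 and H2bu2, and 1 of the probes for H4f16. By the older cluster names, 38 probes lay in the Hist1 cluster, 9 in Hist2, 2 in Hist3 and 2 in Hist4. Every histone probe was 1 spot, and none was saturated or flagged as an outlier by the scanner. A signal below is the scanner's background-subtracted, processed signal. A log2 ratio compares 2 arrays after each was divided by its own 75th percentile, which was 750 for LIFR KO, 652 for gp130 KO and 664 for wildtype. Spots repeated on an array scattered with a median SD of 0.048 log2 in LIFR KO and 0.053 log2 in gp130 KO and in wildtype, so that a ratio of 2 single spots carries a half-width of 0.143 log2 (1.104-fold, 95%) from spot scatter alone.

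**Figure D2:**
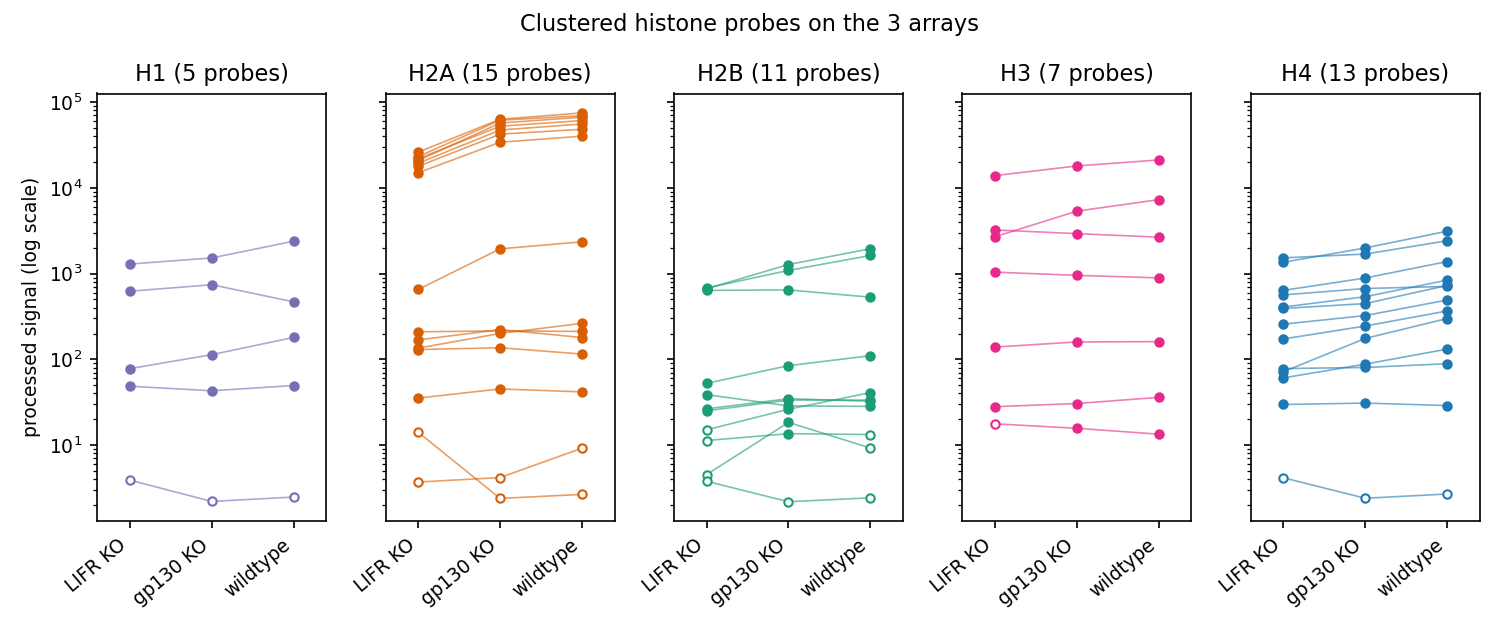
Processed signal (log scale) of every clustered histone probe on the LIFR KO, gp130 KO and wildtype arrays, 1 panel a class and 1 line a probe; open symbols are spots not well above background. The 7 brightest H2A probes sit between 14998 and 26089 in LIFR KO, between 34013 and 63037 in gp130 KO and between 40027 and 74685 in wildtype.

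The labels were set against marker genes. Of 12 pluripotency markers, the scanner called 8 well above background on each of the 3 arrays and Sox2, Zfp42, Dppa3 and Fgf4 on none, while Pou5f1 read 22.7, 20.3 and 31.2 in LIFR KO, gp130 KO and wildtype. All 10 epithelial markers were detected above background on each array, with a summed level of 123, 122 and 116 times the array's 75th percentile. Of 10 fibroblast markers, 4 were above background on all arrays and Pdgfrb, Lum and Fap on none, with a summed level of 1.197, 1.15 and 0.927. Some defining stem cell markers were thus not detected on any array, wildtype included, and the arrays are called below by their labels. In LIFR KO against wildtype, 3 of 8 measured pluripotency markers were at least 1.5-fold lower and 0 higher, with a list median of -0.38 log2. The 3 were Nanog, Pou5f1 and Lin28a, at -0.72, -0.63 and -0.62 log2, and Dppa5a was at 0.49 log2. The Pou5f1 signal was close to 16.7, the lowest signal well above background in LIFR KO. Among all probes measured, 8.19% were at least 1.5-fold lower and 6.03% higher in LIFR KO, and 3.49% and 3.56% in gp130 KO. In gp130 KO, Dppa5a was higher at 0.98 log2 and Pou5f1 lower at -0.59 log2, with a median of 0.04 log2. Of the 10 epithelial markers, Cldn4 was higher at 1.14 log2 and Esrp1 lower at -0.72 log2 in LIFR KO, and 0 were apart in gp130 KO. Of 7 measured fibroblast markers, Col1a1 was higher at 1.69 log2 in LIFR KO, with a list median of 0.0 log2, and Dcn and Col3a1 were higher at 1.05 and 0.63 log2 in gp130 KO, with a median of 0.43 log2. The part of these shifts in the histone signals was not tested. Of the Lifr probes, 1 was detected, at 29.97, 34.7 and 34.9, and the other two were dim on every array. The Il6st probe read 369, 299 and 329. Neither separates its knockout from the others. Since the position of the deletions is not given, these probes check nothing. The LIFR KO array had 249 spots of stray local background, at a level up to 25884, and none of them was a clustered histone probe of the set.

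Read against wildtype, the clustered histone probes were mostly lower on the LIFR KO array, with every class median below 0 except H1 and H2B under the normexp background correction, and nearer to wildtype on the gp130 KO array, where H1 and H4 had the lowest class medians. In LIFR KO, 27 of 44 measured probes were at least 1.5-fold lower and 0 were higher by that much. Among all 25726 probes measured in that comparison, 8.19% were at least 1.5-fold lower and 6.03% higher. At 2-fold, 24 of the 44 were lower and 0 higher, against 1.79% and 2.62% of all probes. The histone median was -1.09 log2 and that of all probes -0.05 log2. These shares describe the set as it was chosen. Dividing by the array median in place of the 75th percentile moved the all-probe median to 0.08 log2 and the histone median to -0.93 log2. With normexp the histone median was -0.13 log2, against 0.11 log2 for all probes. Then 13 of 44 were at least 1.5-fold higher and 18 lower, against 37.3% and 5.06% of all probes. With the stray-signal spots left out of its fit, the histone median was -0.78 log2 and the all-probe median -0.06 log2. The H1 and H2B medians were then -0.55 and -0.34 log2.

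In gp130 KO, 8 of 46 measured histone probes were at least 1.5-fold lower and 2 higher, against 3.49% and 3.56% of all probes. None was 2-fold apart in either direction, where 0.793% of all probes were lower and 0.97% higher. The histone median was -0.20 log2, against 0.02 log2 for all 26497 probes. Of the 2 probes at least 1.5-fold higher, H2bc23 was well above background in gp130 KO alone and entered through that array. With both arrays required well above background, 8 of 44 were at least 1.5-fold lower and 1 higher, against 2.57% and 2.43% of all probes. Both knockouts are compared with the same wildtype array, so the 2 sets of ratios are not independent. Of the 44 probes measured in both, 43 had the lower ratio in LIFR KO. In gp130 KO over LIFR KO, 1 of 46 histone probes had a ratio below 0, against 8947 of all 26127 probes measured. The set was chosen because its H2A genes read lower in LIFR KO, so these counts are a description. The 8 probes lower by 1.5-fold in gp130 KO were also lower by 1.5-fold in LIFR KO, and they were 2 H1, 1 H2B and 5 H4 probes.

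**Figure D3:**
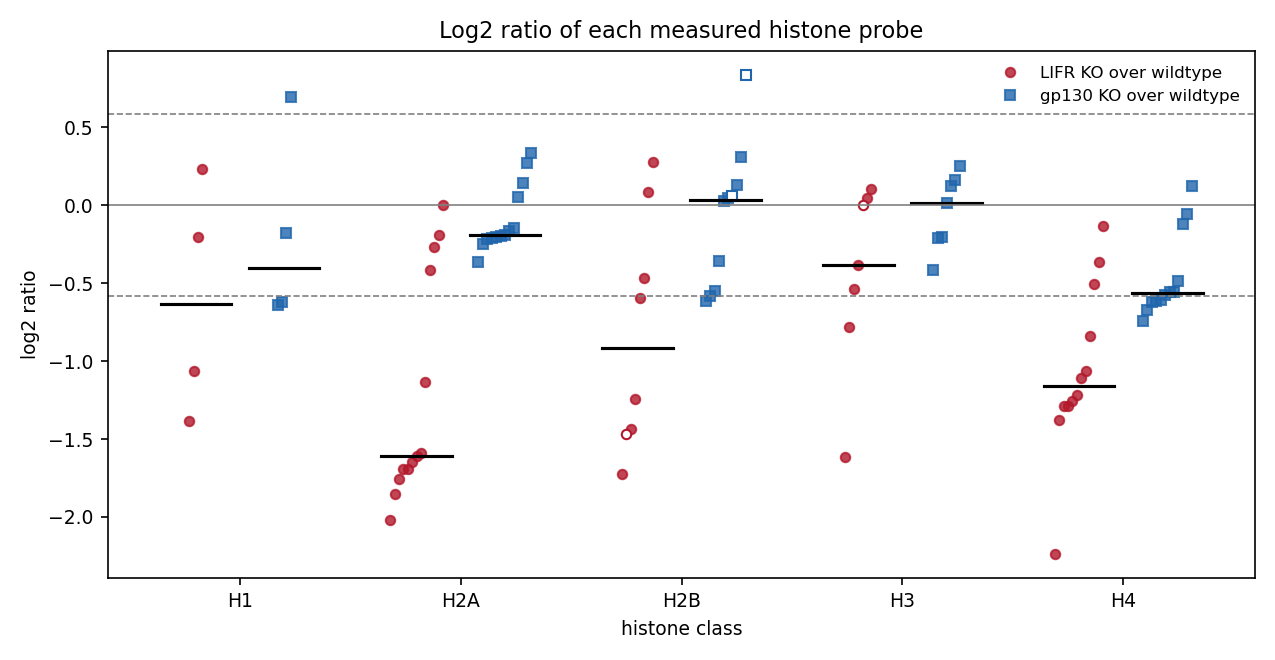
Log2 ratio of each measured histone probe, LIFR KO over wildtype (circles) and gp130 KO over wildtype (squares), by class; black bars are class medians, dashed lines mark 1.5-fold and open symbols are bounds or ratios set to 0 at the background floor. The H2A medians are -1.61 in LIFR KO and -0.19 in gp130 KO, and the H4 medians -1.16 and -0.56.

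The H1 class, which binds linker DNA, held 4 measured probes with a median of -0.63 log2 in LIFR KO and -0.40 log2 in gp130 KO. H1f4, among the abundant somatic H1 variants, read 1292 in LIFR KO, 1523 in gp130 KO and 2388 in wildtype. Its ratio was -1.06 log2 in LIFR KO (2.09-fold lower) and -0.62 log2 in gp130 KO (1.54-fold lower). H1f5 read 78.04, 113.5 and 180 on the same arrays, with ratios of -1.38 and -0.64 log2. Both probes had the order LIFR KO, gp130 KO, wildtype from low to high. H1f2 ran otherwise, at 622 in LIFR KO, 742 in gp130 KO and 468 in wildtype, and was 1.61-fold higher in gp130 KO than in wildtype. The spread of the 3 H1f1 readings, 48.6, 43.0 and 49.6, was within 0.20 log2. The H1f3 probe was not well above background on any array. H1 thus held members on both sides of wildtype. The background correction by normexp turned its LIFR KO median to 0.30 log2, with 37.3% of all probes at least 1.5-fold higher. With the stray-signal spots left out of the normexp fit, the H1 median was -0.55 log2, with 2.45% of all probes higher.

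The H2A class, which pairs with H2B in the core, stood furthest from wildtype in LIFR KO, with a median of -1.61 log2 over 13 measured probes, 9 of them at least 2-fold lower. In gp130 KO the H2A median was -0.19 log2 and 0 of 13 were 1.5-fold apart. A group of 7 probes read over 10000 in wildtype cells: those for H2ac10, H2ac11, H2ac12, H2ac19, H2ac20 and H2ac22, and 1 of the probes for H2ac15. Their median signal was 20826 in LIFR KO, 52302 in gp130 KO and 60867 in wildtype. On the LIFR KO array the highest of the 7 lay below the lowest of them on either other array.

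H2ac12 read 26089, 63037 and 74685 in LIFR KO, gp130 KO and wildtype, with ratios of -1.69 and -0.22 log2. H2ac11 read 23157, 61496 and 69305, with ratios of -1.76 and -0.15 log2. H2ac22 read 20826, 56931 and 66661, with ratios of -1.85 and -0.20 log2, and was the lowest of the 7 in LIFR KO at 3.61-fold. These 3 genes lie in the Hist1 cluster. H2ac10 read 21901, 52302 and 60867 in LIFR KO, gp130 KO and wildtype, with ratios of -1.65 and -0.19 log2. The brighter H2ac15 probe read 19364, 47211 and 55513, with ratios of -1.69 and -0.21 log2. H2ac20 and H2ac19 belong to the Hist2 cluster on another chromosome and gave like values. H2ac20 read 17807, 42234 and 48174, with ratios of -1.61 and -0.16 log2. H2ac19 read 14998, 34013 and 40027, with ratios of -1.59 and -0.21 log2. Over the 7 probes the LIFR KO ratios ran from -1.85 to -1.59 log2, and their median was 3.23-fold lower. Since the probes may share RNA of near-identical copies, they do not count as 7 separate measurements.

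The other H2A probes were far dimmer and varied more. The second H2ac15 probe read 654, 1944 and 2349 in LIFR KO, gp130 KO and wildtype, a ratio of -2.02 log2 in LIFR KO and -0.25 log2 in gp130 KO. H2ac4 read 135, 201 and 263, with ratios of -1.13 and -0.36 log2. The other 4 probes were less than 1.5-fold from wildtype in both knockouts. H2ac18, a Hist2 gene beside H2ac19, read 209, 215 and 212, with a LIFR KO ratio of -0.19 log2. H2ac8 read 130, 137 and 115, and it was 1.001-fold lower in LIFR KO. H2aw, a Hist3 gene, read 168.5, 222 and 180, with ratios of -0.27 and 0.34 log2, and H2ac1, expressed in testis, read 35.4, 45.2 and 41.8, with ratios of -0.41 and 0.14 log2. Without the 7 bright probes the H2A median was -0.34 log2 in LIFR KO and 0.10 log2 in gp130 KO, over 6 probes, so the class value rests on the bright group.

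Among the probes measured in LIFR KO against wildtype, 2008 read over 10000 in wildtype cells. Of these, 29 were at least 1.5-fold lower in LIFR KO, or 1.44%, and they included all 8 clustered histone probes above that signal and the probe for H2aj. At 2-fold, 13 of the 2008 were lower, and 7 of the 13 were clustered histone probes. In gp130 KO, 0.397% of the 2013 probes over 10000 measured against wildtype were at least 1.5-fold lower, and no histone probe was among them. In LIFR KO over wildtype these counts describe arrays on which the set was chosen, as does the 0.0996% of bright probes that were at least 1.5-fold higher there. In gp130 KO over wildtype, 0.0994% of the bright probes were at least 1.5-fold higher.

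**Figure D4:**
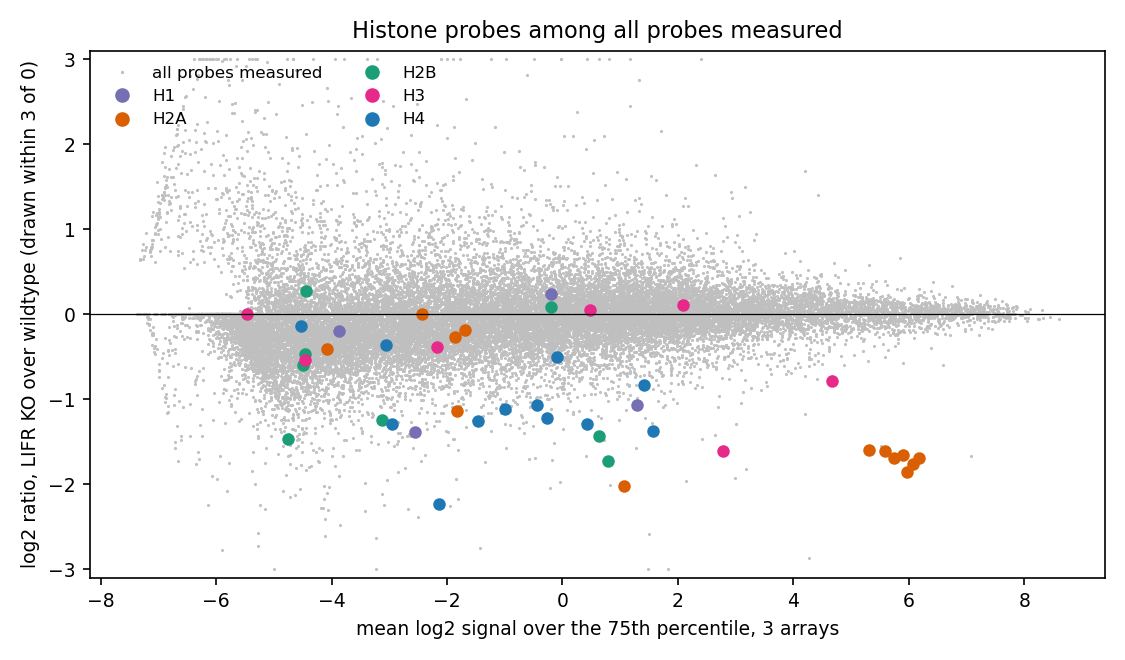
Log2 ratio of LIFR KO over wildtype against the mean log2 signal over the 75th percentile on 3 arrays, for all 25726 probes measured (grey) and the clustered histone probes (coloured by class). The 7 bright H2A probes lie together near -1.7 at the right, and H3c4 near -0.8, below a grey band that is narrow at this signal.

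The H2B class had a median of -0.92 log2 in LIFR KO over 8 measured probes, 5 of them at least 1.5-fold lower. In gp130 KO its median was 0.04 log2 over 10 probes. Of these, H2bc22 and H2bc23 were well above background in gp130 KO alone and entered through that array. With both arrays required well above background, the median was -0.59 log2 over 7 probes in LIFR KO and -0.17 log2 over 8 in gp130 KO. H2bc14 read 665 in LIFR KO, 1276 in gp130 KO and 1947 in wildtype, with ratios of -1.72 log2 (3.30-fold lower) and -0.58 log2. H2bc1, a variant known for replacing somatic H2B during sperm formation, read 680, 1089 and 1626, with ratios of -1.43 and -0.55 log2. H2bc18 read 52.5, 84.5 and 110, with ratios of -1.24 and -0.36 log2. These 3 probes read in the order LIFR KO, gp130 KO, wildtype. H2bc3 was not well above background in LIFR KO, and its signals were 15.1, 26.2 and 40.9, which makes it at least 2.77-fold lower in LIFR KO and 1.53-fold lower in gp130 KO. H2bc8 read 25.1, 33.5 and 33.6, 1.51-fold lower in LIFR KO and 0.03 log2 from wildtype in gp130 KO. H2bc4 read 637, 646 and 531, a ratio of 0.09 log2 in LIFR KO and 0.31 log2 in gp130 KO, and H2bc6 read 38.8, 28.7 and 28.3. H2bc23, well above background in gp130 KO alone, read 4.54, 18.4 and 9.25 and was at least 1.79-fold higher in gp130 KO than in wildtype. Normexp turned the H2B median in LIFR KO to 0.52 log2. With the stray-signal spots left out of its fit, that median was -0.34 log2.

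Some H2A and H2B genes stand back to back and share the stretch between their starts. In 3 such pairs both probes were measured in both comparisons. H2ac8 and H2bc8, 179 bases apart, were 1.001-fold and 1.51-fold lower in LIFR KO. H2ac1 and H2bc1, 280 bases apart, had -0.41 and -1.43 log2. H2ac20 and H2bc21, 191 bases apart, had -1.61 and -0.47 log2. The H2A probe had the lower ratio in 1 of the 3 pairs and the H2B probe in the other two. The scanner's error of a single LIFR KO ratio was 0.31 log2 for H2bc8, 0.34 log2 for H2bc21 and 0.27 log2 for H2ac1, all dim probes, so the smallest of these gaps is uncertain.

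The H3 class had a median of -0.38 log2 in LIFR KO and 0.01 log2 in gp130 KO over 7 probes. H3c4 and H3c13 encode the H3.2 form. H3c4 read 13881, 17999 and 21118 in LIFR KO, gp130 KO and wildtype, with ratios of -0.78 log2 (1.72-fold lower) and -0.20 log2. H3c13, in the Hist2 cluster, read 2687, 5349 and 7282, with ratios of -1.61 log2 (3.06-fold lower) and -0.42 log2. The other H3.2 genes were near wildtype: H3c3 read 3229, 2924 and 2659, and H3c7 read 1040, 954 and 892, with LIFR KO ratios of 0.11 and 0.05 log2. Members that encode the same protein thus ran from -1.61 to 0.11 log2 on the same arrays. The H3.1 genes H3c8 and H3c11 had LIFR KO ratios of -0.38 and -0.54 log2 and gp130 KO ratios of 0.01 and -0.21 log2. H3c1, also H3.1, was not well above background in LIFR KO and gave no fold there.

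The H4 class had a median of -1.16 log2 in LIFR KO over 12 probes, 9 of them at least 1.5-fold lower, and it was the class with the lowest median in gp130 KO, at -0.56 log2 with 5 of 12 at least 1.5-fold lower. The H4 genes encode one protein, so their probes differ by gene only in the untranslated or silent bases they read. The brighter H4c14 probe read 1355, 1990 and 3120 in LIFR KO, gp130 KO and wildtype, with ratios of -1.38 and -0.62 log2. H4c4 read 637, 888 and 1381, with ratios of -1.29 and -0.61 log2. H4f16 read 392, 447 and 727, with ratios of -1.07 and -0.67 log2. The brighter H4c12 probe read 1525, 1689 and 2413, with ratios of -0.84 and -0.49 log2. All 4 had the order LIFR KO, gp130 KO, wildtype. H4c3, at 257, 324 and 491, and H4c11, at 173, 245 and 366, had the same order, with LIFR KO ratios of -1.11 and -1.26 log2. H4c8 and H4c17 were nearer to wildtype, at -0.36 and -0.13 log2 in LIFR KO and -0.12 and 0.12 log2 in gp130 KO.

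Genes with a pair of probes show how far a value depends on the probe. The dimmer H4c14 probe read 71.7, 175 and 299 in LIFR KO, gp130 KO and wildtype, with a LIFR KO ratio of -2.24 log2, which was 0.86 log2 below that of the brighter probe. The pair for H4c9 read 565, 670 and 709 on the brighter probe and 60.8, 88.0 and 132 on the dimmer, with LIFR KO ratios of -0.50 and -1.29 log2. For H4c12 the probes differed by 0.38 log2 and for H2ac15 by 0.33 log2. In gp130 KO the 4 pairs differed by 0.04 to 0.50 log2. In each of the 4 pairs both LIFR KO ratios were below 0. The scanner's error of a single LIFR KO ratio was 0.20 to 0.23 log2 for these probes, so the gaps for H4c12 and H2ac15 are not clearly larger than the error of a difference.

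Set directly against LIFR KO, the gp130 KO array read at least 1.5-fold higher for 24 of 46 measured histone probes and lower for 0, against 6.17% and 4.76% of all 26127 probes measured. The histone median was 0.60 log2 and the all-probe median 0.06 log2. H2A had the highest class median, 1.45 log2 with 10 of 13 probes at least 1.5-fold higher in gp130 KO, followed by H2B at 0.61, H4 at 0.57, H1 at 0.45 and H3 at 0.33 log2. At 2-fold, 11 of the 46 were higher in gp130 KO and 0 lower, against 1.48% and 2.16% of all probes. With both arrays required well above background, 23 of 42 were at least 1.5-fold higher and 0 lower, against 5.01% and 3.99% of all probes. The 7 bright H2A probes had a median of 1.48 log2 in this comparison and were all at least 2-fold higher in gp130 KO. Among the probes over 10000 in wildtype, 0.946% were at least 1.5-fold higher and 0.398% lower in gp130 KO than in LIFR KO. With normexp, 13 of 46 were higher and 13 lower, against 6.84% and 36.6% of all probes, the histone median was 0.05 log2 and the H1 median -0.23 log2. With the stray-signal spots left out of its fit, 14 were higher and 0 lower, against 1.64% of all probes in each direction. The H1 median was then 0.37 log2. Since the comparison uses the LIFR KO array on which the set was chosen, it is no independent support for the lower values there.

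Variant and other histone genes outside the clustered set, most of which give polyadenylated mRNA, were near wildtype as a group, with 1 exception. Of 10 measured, 1 was at least 1.5-fold lower in LIFR KO and 0 higher, against 8.19% and 6.03% of all probes. The list median was 0.02 log2 there, and in gp130 KO 0 were apart, with a median of 0.11 log2. The lower gene was H2aj, an H2A variant gene. H2aj read 17877 in LIFR KO, 38027 in gp130 KO and 46509 in wildtype, with ratios of -1.55 and -0.26 log2. Its LIFR KO ratio lay beside that of H2ac19. Whether its probe also reads RNA of the H2A copies was not tested. H2az1 (H2A.Z) read 71252, 64989 and 60353, as bright as the bright H2A probes, with ratios of 0.06 and 0.13 log2. H3f3b, which encodes H3.3, had ratios of 0.02 and 0.09 log2.

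Genes of histone mRNA processing, of S phase and of histone transcription were read beside the members. Over all probes measured, 6.03% were at least 1.5-fold higher and 8.19% lower in LIFR KO, and 3.56% and 3.49% in gp130 KO. Of 18 measured genes of 3′ processing and turnover, 1 was higher by 1.5-fold in LIFR KO and 0 lower, with a median of 0.05 log2. Slbp, the stem-loop binding protein, read 2260, 2111 and 1902 in LIFR KO, gp130 KO and wildtype, and Zfp473 (ZFP100), which links SLBP to the U7 snRNP, read 167, 98.7 and 93.1, a ratio of 0.67 log2 in LIFR KO. Of 14 histone chaperones, 0 were apart by 1.5-fold in either knockout, and of 15 genes of G2 and M phase also 0. Of 25 genes of S phase and replication, 1 was higher by 1.5-fold in LIFR KO (Cdc6, at 0.59 log2) and 0 lower, with a median of 0.07 log2. Their summed level was 251, 278 and 248 times the 75th percentile in LIFR KO, gp130 KO and wildtype. Single S phase genes ran from -0.36 log2 for Tyms to 0.59 log2 for Cdc6 in LIFR KO. The lower histone signals on that array stood beside an S phase list whose median was not lower. The part of S phase in the histone signals was not tested.

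Among 11 measured histone transcription factors, 2 were higher and 1 lower by 1.5-fold in LIFR KO, with a median of 0.10 log2. In gp130 KO 0 of 12 were apart. Over all probes measured, 6.03% were higher and 8.19% lower by 1.5-fold in LIFR KO, and 3.56% and 3.49% in gp130 KO. Hinfp, an activator of H4 genes, read 488, 245 and 218 in LIFR KO, gp130 KO and wildtype, a ratio of 0.99 log2 in LIFR KO. Pou2f1, which binds the octamer, read 3383, 2498 and 1967, with ratios of 0.61 and 0.37 log2. Nfya, the DNA-contacting regulatory subunit of NF-Y, read 364, 509 and 666, with ratios of -1.05 and -0.36 log2. It was the member of this list that read in the order LIFR KO, gp130 KO, wildtype, as many but not all histone probes did. Genes of the other lists had that order too, such as Lsm11 of 3′ processing, at -0.48 and -0.14 log2, and Tyms of S phase, at -0.36 and -0.09 log2. The other NF-Y subunits, Nfyb and Nfyc, had LIFR KO ratios of -0.23 and 0.15 log2. Npat was not well above background in LIFR KO, at 13.9, against 15.3 in gp130 KO and 14.03 in wildtype. Of these factors, the part of none in the histone signals was tested.

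A list of clustered histone genes described in human cells to give some polyadenylated mRNA had 4 genes on the array and 3 measured. H2bc4, H2bc21 and H1f2 had a median of 0.09 log2 in LIFR KO and 0.31 log2 in gp130 KO, and 0 of the 3 were lower by 1.5-fold in either. Of 10 measured testis histone and protamine genes in LIFR KO, 1 was lower by 1.5-fold, which was the member H2bc1. Over all probes, 8.19% were lower and 6.03% higher there. The 1 that was higher, H2bl1, at least 5.54-fold, lay in stray signal on the LIFR KO array, with a local background of 54 against an array median of 23.5.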

How the data were processed

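RNA of LIFR KO, gp130 KO and wildtype mESCs was labelled with Cy3 and hybridised to 1 single-colour array each, per the labels' protocols. The authors deposited scanner output of Agilent Feature Extraction, version 11.0.1.1 per the file headers (9.1 per the submitters' processing notes), with processed intensity and quality flags per spot, and a table of log2 values. The array design is 026655 on mm9, per the file headers. The deposited log2 table correlated with the log2 processed intensity at 0.999, 0.995 and 0.996 in LIFR KO, gp130 KO and wildtype, and all columns had a median of 5.38, so its scale is log2, its columns share 1 median, and its normalisation step is not stated in the sources used.

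Every array's log2 intensity was set against its 75th percentile over spots that are not controls. Outlier spots were left out and spots of a probe averaged. A probe counted as measured in a comparison if the scanner called it well above background on either array. If it was so on 1 array alone, its ratio is a bound. On the other array, a signal below the lowest one well above background there was raised to that level. The level was 16.7 in LIFR KO, 9.66 in gp130 KO and 10.5 in wildtype. A bound that put the array well above background lower than the other was set to 0. A ratio was called at 1.5-fold. No test was made. Accessions were matched to RefSeq genes of GRCm38.p6, which named 27234 probes. For the marker and pathway lists, the probe with the highest mean signal stood for a gene.

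Genes named are the measured H2A probes, the members at least 1.5-fold apart, the 2 brightest per class, discordant probe pairs and up to 4 genes a list. Slbp, Npat, the NF-Y subunits, some variant histones and members near wildtype were named after their values were seen. The members and lists were chosen with earlier results of these data known, and 1 gene was taken off the S phase list afterwards and is not reported here. Python 3.11.15, pandas 2.3.3, numpy 2.4.6, R 4.3.3 and limma 3.58.1 were used, and the ratios were tested on simulated data. Alternatives covered background correction by normexp (offset 50), other scalings, the deposited log2 table, filters on dim probes and thresholds.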

Additional observations from a re-analysis of the deposited data

How the results depend on the processing

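No paired analysis was possible because each genotype has 1 array and the labels carry no replicate numbers. Leaving out a replicate was not possible either. There were 12 alternatives, 3 of them chosen after seeing the data (normexp without stray-signal spots, members by current symbol only, and leaving out the bright H2A probes). Of 270 values, 210 kept their direction and were not called moved, stronger or weaker. Some of the 210 could not change, such as the H1, H2B, H3 and H4 medians without the bright H2A probes. The 210 also hold the count of members at least 1.5-fold lower in LIFR KO over wildtype. Normexp took it from 27 to 18 of 44, against 5.06% of all probes. The cause of the other changes was not tested unless the alternative itself shows it.
Medians below are log2. With plain normexp the LIFR KO over wildtype medians were -0.13 for all members, 0.30 for H1 (reversed), -2.08 for H2A, 0.52 for H2B (reversed), -0.066 for H3 and -0.43 for H4, with 13 of 44 members at least 1.5-fold higher, against 37.3% of all probes. Its gp130 KO over LIFR KO medians were 0.04999 for all, -0.23 for H1 (reversed), 1.85 for H2A, 0.0 for H2B, 0.153 for H3 and 0.0493 for H4, with 13 of 46 higher and 13 lower, against 6.84% and 36.6% of all probes. In gp130 KO over wildtype it gave 1 higher and 3 lower, against 0.728% and 0.694% of all probes. The LIFR KO array held 249 stray-signal spots. With these left out of the normexp fit the LIFR KO over wildtype medians were -0.78 for all, -0.55 for H1, -0.34 for H2B, -0.18 for H3 and -0.97 for H4. The gp130 KO over LIFR KO medians were then 0.41, 0.37 for H1, 0.25 for H2B and 0.18 for H3, with 14 higher, against 1.64% of all probes. In gp130 KO over wildtype 1 was then higher and 3 lower, against 0.706% and 0.698% of all probes.
With the array median as scale, LIFR KO over wildtype gave -0.93 for all, -0.47 for H1, -1.45 for H2A, -0.76 for H2B, -0.23 for H3 and -1.003 for H4, and gp130 KO over LIFR KO gave 0.45, 0.30, 1.299, 0.46, 0.18 and 0.42 for the same sets. The deposited log2 table gave -0.76 for H2B in LIFR KO over wildtype, and 0.44 for H2B and 0.16 for H3 in gp130 KO over LIFR KO, and quantile normalisation gave -0.76, 0.44 and 0.16 for the same 3. With both arrays required well above background, H2B was -0.59 in LIFR KO and -0.17 in gp130 KO over wildtype. In gp130 KO 1 of 44 members was then higher, against 2.43% of all probes. With no filter on dim probes, H1 was -0.20 in LIFR KO and -0.18 in gp130 KO and H2B -0.59 in LIFR KO, with 1 of 51 higher in LIFR KO over wildtype, against 6.27% of all probes, and 4 lower in gp130 KO over LIFR KO, against 20.8%. Without the bright H2A probes, LIFR KO over wildtype gave -0.78 for all and -0.34 for H2A, gp130 KO over LIFR KO 0.58 for H2A, and gp130 KO over wildtype 0.10 for H2A (reversed). At 2-fold, gp130 KO over wildtype had 0 higher and 0 lower, against 0.97% and 0.793% of all probes. In gp130 KO over LIFR KO 11 were higher, against 1.48%.
The number of arrays, 3 in all, limits the precision. Probes near background, such as H2bc3, H2bc23 and H3c1, give a bound or no fold in some comparisons.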
